A study of Coturnix japonica with 4 samples.

Results

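Cyclic AMP is a small messenger made from ATP inside the cell, and the genes described here belong to families that make it, destroy it and carry its signal. Receptors that couple to the stimulatory G protein switch on adenylyl cyclases, receptors that couple to inhibitory G proteins hold them back, and phosphodiesterases remove the product. The messenger acts through protein kinase A, which anchoring proteins hold at set places in the cell, through exchange factors that activate the small GTPase RAP, and in the nucleus through CREB and its relatives. In mouse and human melanocytes this route links the melanocortin receptor to the production of dark pigment. The set holds the genes of the deposited table whose symbols belong to these families. They are adenylyl cyclases, phosphodiesterases, protein kinase A subunits and inhibitors, A-kinase anchoring proteins and RAP exchange factors. The set includes CREB, CREM, ATF1, their coactivators, and the G protein alpha subunits with GNAS or GNAI symbols. It has 68 of the 12383 genes of the table. Chosen by symbol, it also holds phosphodiesterases selective for cyclic GMP and relatives that act largely outside cyclic AMP signalling.

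The tissue was skin of untreated Japanese quail (Coturnix japonica) embryos at embryonic day 7. Skin of the black stripes was compared with skin of the yellow stripes, with 2 libraries per stripe and tissue of 4 embryos pooled in each library. The deposited table gives 1 value per stripe in RPKM, read numbers divided by transcript length and by the mapped reads of the sample, so levels can be set side by side between genes. No spread between libraries can be given, and the depth behind the values is unknown. The one test of a difference is the authors' own, and a gene was called different where the q-value in the authors' deposited table was under 0.05.

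The values are called black-labelled and yellow-labelled, because pigment genes ran against these names. Whether the names of the columns or labels are exchanged was not tested, and an exchange would turn the direction of every ratio given here. TYR, which starts melanin synthesis, had 4.68 RPKM in black-labelled skin and 57.3 RPKM in yellow-labelled skin. Of 12 melanocyte markers listed, 10 were measured, while MC1R and EDNRB2 had no value under those symbols. Of the 10, 2 were higher in black-labelled skin and 8 in yellow-labelled skin, and none was at 0. Their summed level was 227 RPKM in black-labelled skin and 615 RPKM in yellow-labelled skin. OCA2, with 0.53 RPKM in black-labelled skin and 1.48 RPKM in yellow-labelled skin, reached a mean of 1 RPKM through yellow-labelled skin. PMEL alone had 118 RPKM in black-labelled skin and 336 RPKM in yellow-labelled skin. SOX10 lay closer, at 22.4 RPKM in black-labelled skin and 25.2 RPKM in yellow-labelled skin. KIT lay the other way, at 30.8 RPKM in black-labelled skin and 23.6 RPKM in yellow-labelled skin. Dermal fibroblast markers summed to 2328 RPKM in black-labelled skin and 2226 RPKM in yellow-labelled skin, with 10 of 10 measured. Of 10 epidermal markers listed, 5 were measured, while KRT5, KRT14, KRT15, KRT19 and CDH1 had no value under those symbols. The 5 summed to 231 RPKM in black-labelled skin and 274 RPKM in yellow-labelled skin. Of the 5, 1 was higher in black-labelled skin and 4 in yellow-labelled skin. In whole tissue, fewer cells of a type and less RNA per cell cannot be told apart.

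Of the 68 genes, 59 reached a mean of 1 RPKM and are called measured. RAPGEF4, a RAP exchange factor, and PDE2A, a phosphodiesterase, reached it through the stripe in which they were higher. Among the 59, 1 gene was called different in the authors' deposited table, against 0.348% of all 10061 measured genes. Called higher in black-labelled skin there were 0 of the 59, against 0.179% of all measured genes, and called lower there was 1, against 0.169%. An unadjusted p under 0.05 was reached in the authors' deposited table by 4 of the 59, which is 6.78%, against a background of 3.19%. These are the members that a column of the authors' deposited table marks, among 366 marked genes. The 4 were ADCY5, higher in black-labelled skin (background 1.91%), and PDE1A, PDE9A and RAPGEF4, lower there (background 1.28%). At least 1.5-fold higher in black-labelled skin were 0 genes of the set, against 1.78% of all measured genes. At least 1.5-fold lower in black-labelled skin were 2, RAPGEF4 and PDE9A, against 1.08%. The median log2 ratio of black-labelled over yellow-labelled was 0.02 in the set and -0.00 over all measured genes.

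**Figure D1:**
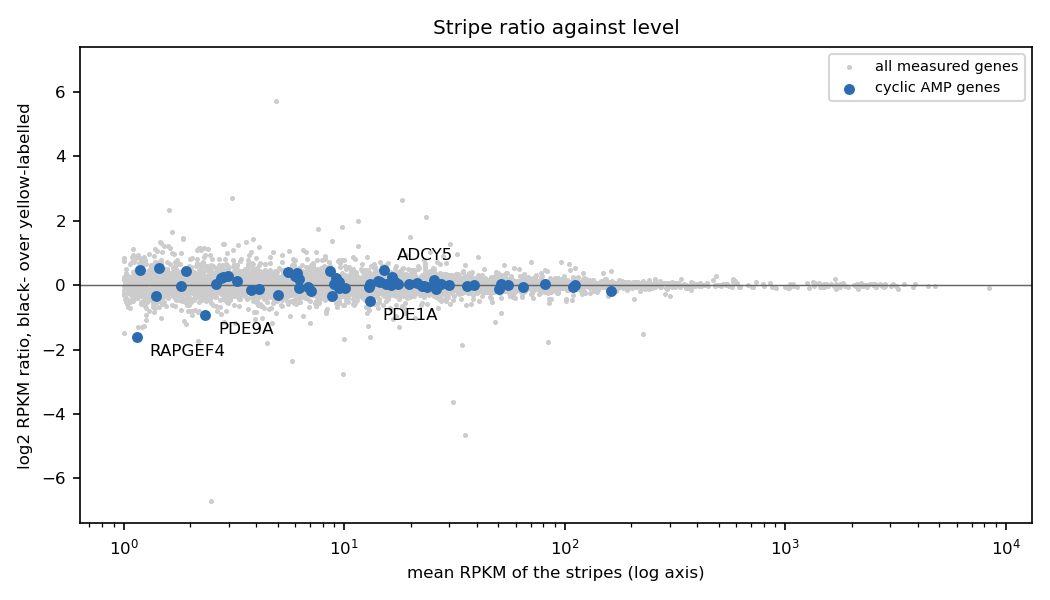
Each point is a gene, with its mean RPKM on a log axis and its log2 RPKM ratio of black-labelled over yellow-labelled skin. Grey points are the 10061 measured genes and blue points the 59 measured cyclic AMP genes; RAPGEF4 and PDE9A lie lowest among the blue points, at -1.62 and -0.93.

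The ratios were not spread evenly over the roles. Of the 59 genes, 43 lay within 1.2-fold between the stripes, or 72.9%, against 87.4% of all measured genes. Cyclases and phosphodiesterases lay farther apart than the rest of the set. Of 22 measured cyclases and phosphodiesterases, 11 lay within 1.2-fold, while 32 of the 37 genes of the other roles did. The cyclases and phosphodiesterases were less abundant, with a median level of 6.19 RPKM against 17.0 RPKM for the other roles. Among genes at or above a mean of 5 RPKM, 8 of 14 cyclases and phosphodiesterases lay within 1.2-fold, against 29 of 31 in the other roles and 92.4% of all genes. That floor did not level the roles, as the median was still 9.68 RPKM for cyclases and phosphodiesterases against 22.6 RPKM for the other roles. The difference between the roles was not tested, and this grouping of the roles was not among the planned comparisons.

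**Figure D2:**
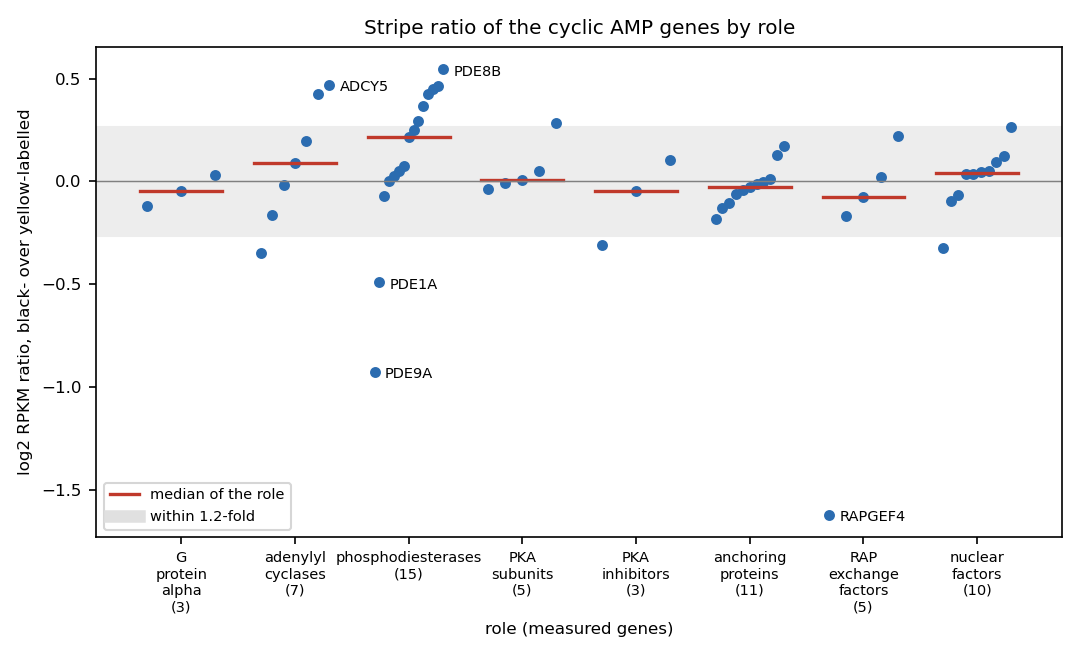
Points show the log2 RPKM ratio of black-labelled over yellow-labelled skin for each measured cyclic AMP gene, by role, with the number of genes in brackets. The red line is the median of a role and the grey band marks ratios within 1.2-fold; all 11 anchoring proteins lie in the band, and the phosphodiesterases reach from -0.93 to 0.55.

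The G protein alpha subunits pass the receptor's signal to the cyclases and were close between the stripes. GNAS, the stimulatory subunit of the set, had 25.0 RPKM in black-labelled skin and 27.1 RPKM in yellow-labelled skin. Other alpha subunits, such as GNAL, GNAO1 and GNAZ, are outside the set. Within the set, the inhibitory subunits were the more abundant ones. GNAI3 had 107 RPKM in black-labelled skin and 110 RPKM in yellow-labelled skin, and GNAI2 had 82.4 RPKM in black-labelled skin and 80.7 RPKM in yellow-labelled skin. The lowest p of the 3 genes in the authors' deposited table was 0.555.

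Adenylyl cyclases are the membrane enzymes that make cyclic AMP, and they differ in how calcium and G protein subunits act on them. ADCY5 and ADCY9 together held most of the cyclase level. ADCY5, which calcium inhibits, had 17.7 RPKM in black-labelled skin and 12.8 RPKM in yellow-labelled skin. This 1.38-fold difference had p = 0.0231 and q = 0.985 in the authors' deposited table, so ADCY5 was not called. ADCY5 made up 33.5% of the summed cyclase RPKM in black-labelled skin and 28.3% in yellow-labelled skin. ADCY9, which responds little to the plant compound forskolin that activates the other membrane cyclases, had 15.1 RPKM in black-labelled skin and 14.2 RPKM in yellow-labelled skin. ADCY5 thus ranked above ADCY9 in black-labelled skin and below it in yellow-labelled skin, with no replicate error to weigh that order.

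Of the other cyclases, ADCY6, the closest relative of ADCY5, had 6.69 RPKM in black-labelled skin and 5.85 RPKM in yellow-labelled skin. ADCY2 and ADCY7 are stimulated by G protein beta-gamma subunits and lay on opposite sides. ADCY2 had 6.40 RPKM in black-labelled skin and 4.77 RPKM in yellow-labelled skin, with p = 0.0756 in the authors' deposited table. ADCY7 had 3.57 RPKM in black-labelled skin and 4.00 RPKM in yellow-labelled skin. The calcium-stimulated cyclases were the lowest. ADCY3 had 1.81 RPKM in black-labelled skin and 1.83 RPKM in yellow-labelled skin, and ADCY8 had 1.24 RPKM in black-labelled skin and 1.58 RPKM in yellow-labelled skin. Over all 8 cyclases of the table, the summed level was 52.7 RPKM in black-labelled skin and 45.1 RPKM in yellow-labelled skin. Some markers of more than 1 cell type lay in the direction of ADCY5. Of 10 skeletal muscle markers listed, MYH1 and CKM had no value under those symbols. The others summed to 35.6 RPKM in black-labelled skin and 19.2 RPKM in yellow-labelled skin. All 5 measured were higher in black-labelled skin, 0 were called, and 1, ACTN2, lay within 1.2-fold. TNNC1 alone had 25.1 RPKM in black-labelled skin and 13.0 RPKM in yellow-labelled skin. Below the level called measured, MYOD1, a defining muscle regulator, had 0.14 RPKM in black-labelled skin and 0.03 RPKM in yellow-labelled skin. MYOG lay with MYOD1, and MYF5 lay the other way, at 0.009 RPKM in black-labelled skin and 0.015 RPKM in yellow-labelled skin. Of 10 measured dermal fibroblast markers, 7 were higher in black-labelled skin and 3 in yellow-labelled skin. Most were close between the stripes, with 8 of the 10 within 1.2-fold and a lowest p of 0.12 in the authors' deposited table. Neuron markers were mixed, with 4 of 6 measured higher in black-labelled skin and 2, GAP43 and ELAVL4, higher in yellow-labelled skin. GAP43 had the lowest p of that list in the authors' deposited table, 0.00065. The neuron markers summed to 25.5 RPKM in black-labelled skin and 23.6 RPKM in yellow-labelled skin. The part of these cell types in the ADCY5 value was not tested.

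**Figure D3:**
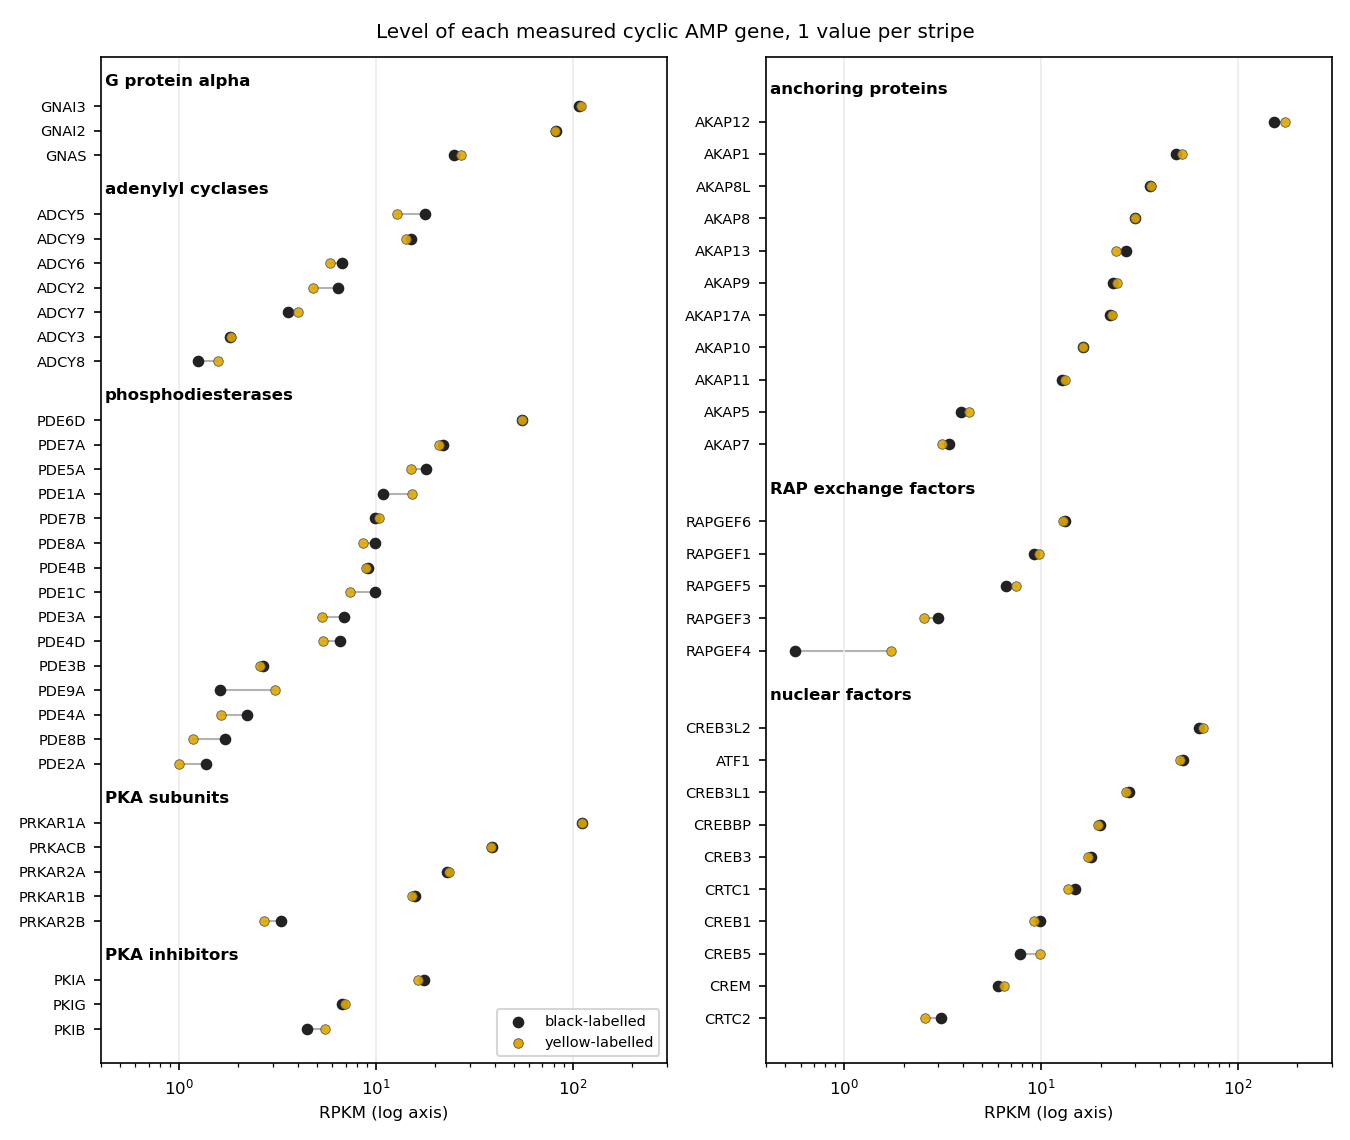
Each row is a measured cyclic AMP gene, with its RPKM in the black-labelled (black point) and yellow-labelled (yellow point) skin on a log axis, grouped by role and ordered by mean level. Most pairs of points overlap; RAPGEF4 has the widest gap, at 0.56 RPKM in black-labelled skin and 1.73 RPKM in yellow-labelled skin.

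Phosphodiesterases break the cyclic nucleotides down, and the families differ in whether they take cyclic AMP, cyclic GMP or both. Of 15 measured genes of this name, 12 were higher in black-labelled skin and 3 in yellow-labelled skin, against 49.7% of all measured genes that were higher in black-labelled skin. None was called in the authors' deposited table (0.348% of all measured genes), and 2 had an unadjusted p under 0.05 there (3.19%). Their median log2 ratio was 0.21. Without PDE6D, which has no catalytic domain, 11 of 14 were higher in black-labelled skin and the median log2 ratio was 0.23. The summed level of the catalytic phosphodiesterases was closer between the stripes, at 114 RPKM in black-labelled skin and 107 RPKM in yellow-labelled skin. Genes selective for cyclic AMP held 54.4% of that sum in black-labelled skin and 53.3% in yellow-labelled skin.

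The cyclic AMP-selective families are PDE4, PDE7 and PDE8. PDE7A was the most abundant catalytic phosphodiesterase, with 22.0 RPKM in black-labelled skin and 20.9 RPKM in yellow-labelled skin. PDE7B had 9.87 RPKM in black-labelled skin and 10.4 RPKM in yellow-labelled skin, and was the 1 measured gene of these families that was lower in black-labelled skin. PDE8A had 9.91 RPKM in black-labelled skin and 8.54 RPKM in yellow-labelled skin. PDE8B had the highest ratio of the 59 measured genes, 1.46-fold, at a low level of 1.72 RPKM in black-labelled skin and 1.18 RPKM in yellow-labelled skin. Its p in the authors' deposited table was 0.102. The 3 measured PDE4 genes, targets of the drug rolipram, all lay higher in black-labelled skin and were not called. PDE4B had 9.08 RPKM in black-labelled skin and 8.91 RPKM in yellow-labelled skin. PDE4D had 6.60 RPKM in black-labelled skin and 5.39 RPKM in yellow-labelled skin, and PDE4A had 2.22 RPKM in black-labelled skin and 1.63 RPKM in yellow-labelled skin.

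Of the phosphodiesterases that take both nucleotides, PDE1A and PDE1C are activated by calcium and calmodulin, and they lay in opposite directions. PDE1A had 10.8 RPKM in black-labelled skin and 15.2 RPKM in yellow-labelled skin, a log2 ratio of -0.49, with p = 0.0222 and q = 0.960 in the authors' deposited table. PDE1C had 9.89 RPKM in black-labelled skin and 7.36 RPKM in yellow-labelled skin, a log2 ratio of 0.43, with p = 0.112 in the authors' deposited table. PDE1A therefore took 9.55% of the catalytic phosphodiesterase RPKM in black-labelled skin and 14.2% in yellow-labelled skin, and PDE1C 8.71% in black-labelled skin and 6.86% in yellow-labelled skin. In the RefSeq annotation of Coturnix japonica 2.1, PDE1A overlaps DNAJC10, a chaperone gene, which had 29.8 RPKM in black-labelled skin and 30.8 RPKM in yellow-labelled skin. The strand setting of the counting is not stated. PDE3A, which cyclic GMP inhibits, had 6.88 RPKM in black-labelled skin and 5.33 RPKM in yellow-labelled skin. Its relative PDE3B had 2.67 RPKM in black-labelled skin and 2.58 RPKM in yellow-labelled skin. PDE2A, which cyclic GMP activates, had 1.37 RPKM in black-labelled skin and 0.99 RPKM in yellow-labelled skin.

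Of the phosphodiesterases selective for cyclic GMP, PDE9A had the lowest ratio of all phosphodiesterases. It had 1.62 RPKM in black-labelled skin and 3.08 RPKM in yellow-labelled skin, 1.90-fold lower in black-labelled skin, with p = 0.0131 and q = 0.721 in the authors' deposited table. PDE9A was not called, although its ratio was the 37th lowest among all 10061 measured genes. PDE5A, the target of sildenafil, had 17.9 RPKM in black-labelled skin and 15.1 RPKM in yellow-labelled skin. PDE6D carries the family name without a catalytic domain and binds lipid-modified proteins. It had 55.4 RPKM in black-labelled skin and 55.3 RPKM in yellow-labelled skin.

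**Figure D4:**
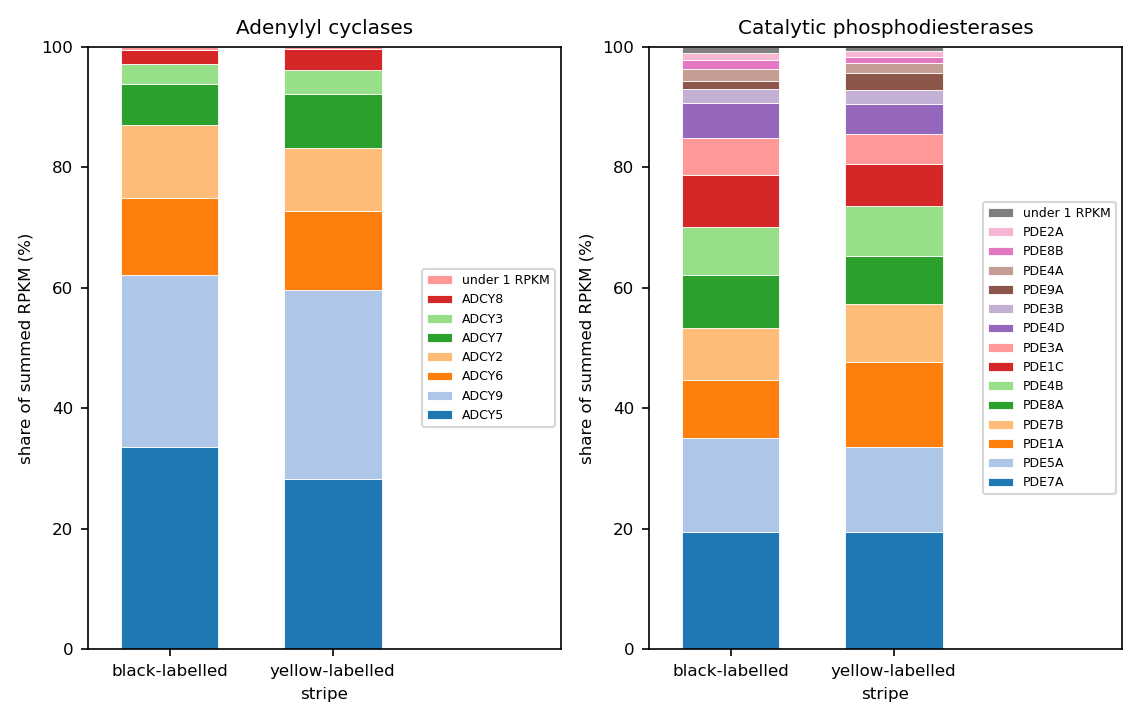
Stacked bars give each gene's share, in percent, of the summed RPKM of the adenylyl cyclases (left) and of the catalytic phosphodiesterases (right), in black-labelled and yellow-labelled skin. The ADCY5 share is 33.5% in black-labelled and 28.3% in yellow-labelled skin, and the PDE1A share 9.55% in black-labelled and 14.2% in yellow-labelled skin.

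Protein kinase A is held inactive by regulatory subunits, which release the catalytic subunits when they bind cyclic AMP. Of its 5 subunits in the table, 4 lay within 1.2-fold between the stripes, and PRKAR2B did not. PRKAR1A, a type I regulatory subunit, was the most abundant, with 111 RPKM in black-labelled skin and 112 RPKM in yellow-labelled skin. PRKACB, the catalytic subunit in the table, had 38.8 RPKM in black-labelled skin and 38.6 RPKM in yellow-labelled skin. No other catalytic subunit is in the set, so the summed level of the catalytic subunits cannot be given. Of the type II regulatory subunits, PRKAR2A had 22.8 RPKM in black-labelled skin and 23.4 RPKM in yellow-labelled skin, and PRKAR2B had 3.27 RPKM in black-labelled skin and 2.68 RPKM in yellow-labelled skin. PRKAR1B had 15.8 RPKM in black-labelled skin and 15.2 RPKM in yellow-labelled skin. Summed over the 4 regulatory subunits, the level was 153 RPKM in black-labelled skin and 153 RPKM in yellow-labelled skin.

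The PKI proteins bind the free catalytic subunit and block it. PKIA, the most abundant, had 17.6 RPKM in black-labelled skin and 16.4 RPKM in yellow-labelled skin. PKIG had 6.73 RPKM in black-labelled skin and 6.94 RPKM in yellow-labelled skin. PKIB lay farthest from equality, at 4.47 RPKM in black-labelled skin and 5.54 RPKM in yellow-labelled skin, with p = 0.376 in the authors' deposited table.

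Anchoring proteins tie protein kinase A to membranes, organelles and other enzymes. Of 11 measured, 3 were higher in black-labelled skin and 8 in yellow-labelled skin, and all 11 lay within 1.2-fold. AKAP12, a scaffold at the plasma membrane also called gravin, was the most abundant gene of the whole set, with 152 RPKM in black-labelled skin and 173 RPKM in yellow-labelled skin. It accounted for 40.5% of the summed anchoring protein RPKM in black-labelled skin and 43.3% in yellow-labelled skin. AKAP1, which sits on mitochondria, had 48.4 RPKM in black-labelled skin and 52.1 RPKM in yellow-labelled skin. AKAP13, which also activates the GTPase RHOA, had 27.0 RPKM in black-labelled skin and 24.0 RPKM in yellow-labelled skin.

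The remaining anchoring proteins were less abundant than AKAP1. The nuclear protein AKAP8 had 29.8 RPKM in black-labelled skin and 29.8 RPKM in yellow-labelled skin, and its relative AKAP8L 35.8 RPKM in black-labelled skin and 36.1 RPKM in yellow-labelled skin. AKAP9, of the centrosome and Golgi apparatus, had 23.2 RPKM in black-labelled skin and 24.2 RPKM in yellow-labelled skin. AKAP17A, which also takes part in splicing, had 22.4 RPKM in black-labelled skin and 22.8 RPKM in yellow-labelled skin. Of these 4 genes AKAP9 differed most, by 1.04-fold. AKAP10 had 16.4 RPKM in black-labelled skin and 16.2 RPKM in yellow-labelled skin. AKAP11 had 12.8 RPKM in black-labelled skin and 13.2 RPKM in yellow-labelled skin. The lowest measured anchoring proteins were those of plasma membrane channel complexes. AKAP5 had 3.91 RPKM in black-labelled skin and 4.27 RPKM in yellow-labelled skin, and AKAP7 had 3.41 RPKM in black-labelled skin and 3.12 RPKM in yellow-labelled skin.

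RAP exchange factors load the small GTPase RAP with GTP, and RAPGEF3 and RAPGEF4, also called EPAC1 and EPAC2, do so when they bind cyclic AMP. RAPGEF4 was the 1 gene of the set that was called. It fell to 0.56 RPKM in black-labelled skin, against 1.73 RPKM in yellow-labelled skin, a 3.07-fold difference with p = 5e-05 and q = 0.0177 in the authors' deposited table. These are the lowest p and q that the authors' deposited table holds, and 30 genes share that p. The log2 ratio of -1.62 was the 11th lowest of the 10061 measured genes. RAPGEF4 was also among the lowest measured genes by level, at percentile 1.27 of mean RPKM, and its log2 ratio was -0.81 when 1 RPKM was added to both values.

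RAPGEF3 lay in the other direction at a higher level. It had 2.97 RPKM in black-labelled skin and 2.55 RPKM in yellow-labelled skin, with p = 0.454 in the authors' deposited table, so RAPGEF3 stood above RAPGEF4 in both stripes. Summed over this cyclic AMP-activated pair, the level was 3.54 RPKM in black-labelled skin and 4.28 RPKM in yellow-labelled skin. The exchange factors that cyclic AMP does not activate were more abundant and close between the stripes. RAPGEF6 had 13.1 RPKM in black-labelled skin and 12.9 RPKM in yellow-labelled skin. RAPGEF1 had 9.22 RPKM in black-labelled skin and 9.71 RPKM in yellow-labelled skin, and RAPGEF5 had 6.64 RPKM in black-labelled skin and 7.47 RPKM in yellow-labelled skin.

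RAPGEF4, PDE9A and PDE1A were lower in black-labelled skin, and so were some markers of more than 1 cell type. Beside the melanocyte markers, smooth muscle and pericyte markers summed to 111 RPKM in black-labelled skin and 132 RPKM in yellow-labelled skin. Of the 8 measured among them, which share DES with the skeletal muscle markers, 2 were higher in black-labelled skin and 6 in yellow-labelled skin, and none was at 0. MYH11, with 2.00 RPKM in black-labelled skin and 6.97 RPKM in yellow-labelled skin, was the 1 called, with q = 0.0177 in the authors' deposited table. Of 5 measured epidermal markers, 1 was higher in black-labelled skin and 4 in yellow-labelled skin, and 0 were called. Neuron markers summed to 25.5 RPKM in black-labelled skin and 23.6 RPKM in yellow-labelled skin. Of the 6 measured, 4 were higher in black-labelled skin and 2, GAP43 and ELAVL4, in yellow-labelled skin. Endothelial markers summed to 122 RPKM in black-labelled skin and 122 RPKM in yellow-labelled skin. The part of these cell types in the 3 genes was not tested.

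In the nucleus, protein kinase A phosphorylates CREB1, CREM and ATF1, which bind the cyclic AMP response element. ATF1 was the most abundant of these, with 52.2 RPKM in black-labelled skin and 50.6 RPKM in yellow-labelled skin. CREB1 had 9.81 RPKM in black-labelled skin and 9.18 RPKM in yellow-labelled skin, and CREM had 6.06 RPKM in black-labelled skin and 6.48 RPKM in yellow-labelled skin. The 3 measured coactivators were all slightly higher in black-labelled skin. CREBBP, a histone acetyltransferase, had 20.0 RPKM in black-labelled skin and 19.5 RPKM in yellow-labelled skin. CRTC1, which enters the nucleus when salt-inducible kinases are inhibited, had 14.9 RPKM in black-labelled skin and 13.7 RPKM in yellow-labelled skin, and CRTC2 had 3.09 RPKM in black-labelled skin and 2.57 RPKM in yellow-labelled skin. None of these 6 genes was called, and their lowest p in the authors' deposited table was 0.440.

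Related factors with a CREB name act largely outside cyclic AMP signalling. CREB3L2, a regulator of the secretory pathway, led the nuclear factors with 63.5 RPKM in black-labelled skin and 66.5 RPKM in yellow-labelled skin. CREB3L1, its relative in matrix-secreting cells, had 28.0 RPKM in black-labelled skin and 27.0 RPKM in yellow-labelled skin. CREB3 had 17.8 RPKM in black-labelled skin and 17.4 RPKM in yellow-labelled skin. CREB5 lay farthest from equality, at 7.84 RPKM in black-labelled skin and 9.80 RPKM in yellow-labelled skin, with p = 0.137 in the authors' deposited table.

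The 9 genes of the set below a mean of 1 RPKM were ADCY1, AKAP6, AKAP14, CREB3L3, PDE1B, PDE4C, PDE6B, PDE6C and PDE11A. Their values lay between 0 and 0.42 RPKM over both stripes, and CREB3L3 was listed at 0 in black-labelled skin. All 9 had p = 1 in the authors' deposited table. PDE6B and PDE6C, the visual phosphodiesterases of rods and cones, were among them.

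Other genes of the pathway were taken from lists of receptors, G protein subunits, regulators, further effectors and CREB-related genes. Of 118 measured genes outside the set, 4 were called in the authors' deposited table, against 0.348% of all measured genes. All 4 were on the list of CREB target genes. That list was drawn up with the ratios of the pigment genes known, so this count cannot be weighed against the background. Before adjustment, 10, with these 4 among them, had a p under 0.05 in the authors' deposited table, against 3.19% of all measured genes. Receptors coupled to the stimulatory G protein had 14 measured genes with 0 called, and their median log2 ratio was 0.15. PTH1R, the parathyroid hormone receptor, led them with 37.0 RPKM in black-labelled skin and 28.7 RPKM in yellow-labelled skin, and CALCRL, a receptor of calcitonin-related peptides, had 10.1 RPKM in black-labelled skin and 8.85 RPKM in yellow-labelled skin. CRHR2, a receptor of the urocortins, had 9.86 RPKM in black-labelled skin and 15.8 RPKM in yellow-labelled skin, with p = 0.00475 and q = 0.406 in the authors' deposited table. VIPR2, a receptor of vasoactive intestinal peptide, had 1.99 RPKM in black-labelled skin and 1.27 RPKM in yellow-labelled skin, with p = 0.0346 and q = 1 in the authors' deposited table. The melanocortin receptor MC1R had no value under that symbol among the genes analysed.

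Receptors coupled to inhibitory G proteins had 16 measured genes, 0 called and a median of 0.04. LPAR1, a receptor of lysophosphatidic acid, had 37.3 RPKM in black-labelled skin and 35.3 RPKM in yellow-labelled skin, and APLNR, the apelin receptor, 17.2 RPKM in black-labelled skin and 17.1 RPKM in yellow-labelled skin. GRM7, a glutamate receptor, had 3.08 RPKM in black-labelled skin and 1.61 RPKM in yellow-labelled skin, with p = 0.00355 and q = 0.318 in the authors' deposited table. ADRA2C, an adrenergic receptor, had 2.1 RPKM in black-labelled skin and 3.38 RPKM in yellow-labelled skin, with p = 0.0181 and q = 0.868 in the authors' deposited table. Of 17 other G protein subunits and their chaperones, 0 were called, 0 had a p under 0.05 before adjustment in the authors' deposited table, and all lay within 1.2-fold. GNB1, a beta subunit, had 185 RPKM in black-labelled skin and 182 RPKM in yellow-labelled skin, and GNG5, a gamma subunit, 131 RPKM in black-labelled skin and 127 RPKM in yellow-labelled skin.

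Among 18 measured regulators of receptors and G proteins, 0 were called. RGS2, which shortens G protein signals, had 33.9 RPKM in black-labelled skin and 47.6 RPKM in yellow-labelled skin, with p = 0.0291 and q = 1 in the authors' deposited table. GPSM2 had 29.5 RPKM in black-labelled skin and 32.1 RPKM in yellow-labelled skin, and RGS10 had 24.0 RPKM in black-labelled skin and 26.1 RPKM in yellow-labelled skin. Of 13 further effectors, RAP proteins and exporters, 0 were called. POPDC3, of the Popeye proteins that bind cyclic AMP, had 2.13 RPKM in black-labelled skin and 3.72 RPKM in yellow-labelled skin, with p = 0.00790 and q = 0.553 in the authors' deposited table. By mean level, 2 RAP GTPases led this list. RAP2C had 50.5 RPKM in black-labelled skin and 50.5 RPKM in yellow-labelled skin, and RAP1A, a target of the EPAC proteins, had 47.5 RPKM in black-labelled skin and 42.5 RPKM in yellow-labelled skin.

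The 16 measured CRTC kinases, phosphatases and CREB partners all lay within 1.2-fold, with 0 called and 0 with a p under 0.05 before adjustment in the authors' deposited table. ATF4, a stress-response factor, had 301 RPKM in black-labelled skin and 298 RPKM in yellow-labelled skin, and PPP1CB, a phosphatase catalytic subunit, had 152 RPKM in black-labelled skin and 151 RPKM in yellow-labelled skin. Of 24 measured genes on the list of CREB target genes, 1 was called higher in black-labelled skin, against 0.179% of all measured genes. Called lower there were 3, against 0.169%. This list was drawn up with the ratios of the pigment genes known, so these counts cannot be weighed against the background. It shares TYR, TYRP1, DCT and MITF with the melanocyte markers, and whether CREB acts directly on any of its genes was not tested. The 3 were the pigment enzymes TYR, TYRP1 and DCT, each with q = 0.0177 in the authors' deposited table, and the 1 was the neuropeptide gene SST, with 38.1 RPKM in black-labelled skin and 8.77 RPKM in yellow-labelled skin and q = 0.0177 in the authors' deposited table. MITF, which both lists also share, had 21.9 RPKM in black-labelled skin and 26.0 RPKM in yellow-labelled skin. It was not called, with p = 0.221 in the authors' deposited table. The 24 genes had a median log2 ratio of -0.07. ID3 and ID1, inhibitors of helix-loop-helix factors, had the highest mean levels of the list, with 296 RPKM in black-labelled skin and 288 RPKM in yellow-labelled skin for ID3, and 68.7 RPKM in black-labelled skin and 56.8 RPKM in yellow-labelled skin for ID1.

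**Figure D5:**
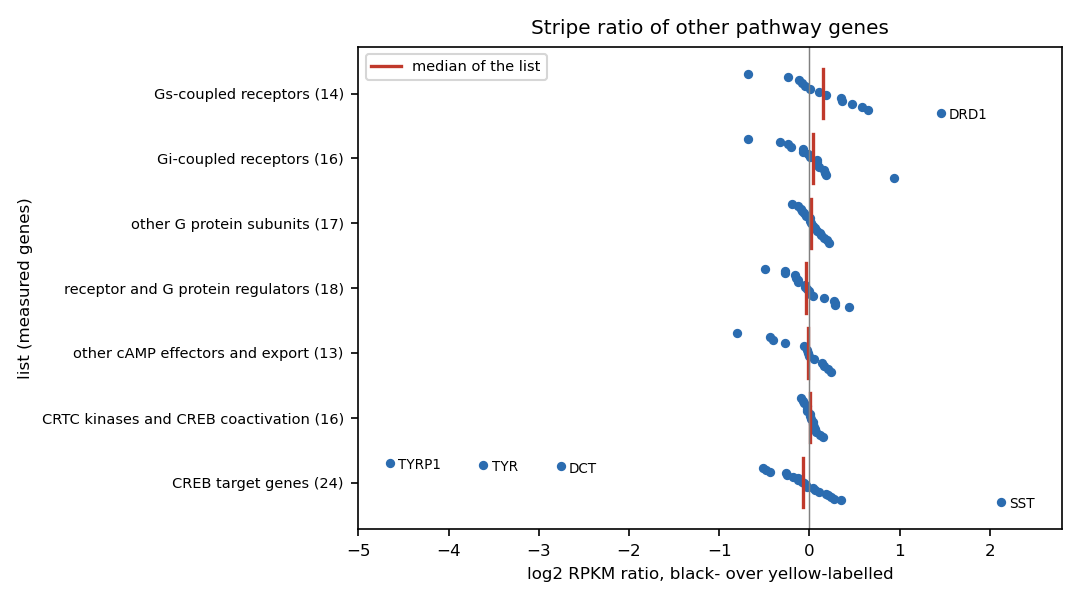
Points show the log2 RPKM ratio of black-labelled over yellow-labelled skin for the measured genes of 7 further lists of the pathway, with the number of genes in brackets and the median of each list as a red line. Medians run from -0.07 to 0.15; TYRP1, TYR and DCT lie far to the left and SST to the right on the list of CREB target genes, and all 4 were called.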

How the data were processed

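RNA was sequenced from skin of black and yellow stripes, with 2 libraries per stripe. The authors deposited RPKM values with 1 value per stripe, and their tools included TopHat2 2.1.1, an aligner, and Cufflinks 2.2, a quantifier, per the submitters' processing notes. The sources used here do not give the build, the annotation, the strand setting or the step that combined libraries. Per the file headers, the authors' p-values and q-values come from an export of a QIAGEN program; how the libraries entered them is not stated. The authors' deposited log2 ratios lay within 0.01 of the log2 ratio of black-labelled over yellow-labelled RPKM in each of the 10503 genes whose black-labelled and yellow-labelled values reached 0.5 RPKM. Of 12419 rows, 11 with an ID turned into a number and 25 with repeated IDs were left out. Of the 68 members, 67 matched a RefSeq symbol of Coturnix japonica 2.1, used for names and neighbours only, since the build of the values is not stated.

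Log2 ratios were computed in Python 3.11.15 with pandas 2.3.3, with no pseudocount, and genes were called measured from a mean of 1 RPKM upward. With 1 value per stripe no test of the values was run. The code for the ratios and for the p-value adjustment was checked on simulated data with large planted differences. That check bears on the code only, not on the results. Every measured member is named; from each pathway list, genes with an unadjusted p under 0.05 and the 2 most abundant others are named. The members, lists and markers were chosen with earlier results of these data known.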

Additional observations from a re-analysis of the deposited data

How the results depend on the processing

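The number of called genes in the set was 1. It became 0 at q under 0.01 (where 4 had an unadjusted p under 0.05), since no q in the authors' deposited table is below 0.0177. It was 4 at an unadjusted p under 0.05, and 0 at or above a mean of 5 RPKM, a filter that leaves RAPGEF4 out. Adjusting the authors' p-values again (Benjamini-Hochberg) over measured genes left it at 1. Genes at least 1.5-fold higher in black-labelled skin numbered 0, and 2 with a floor of 0.1 RPKM, which adds ADCY1 and PDE4C. Genes at least 1.5-fold lower there numbered 2, and 3 with a floor of 0.1 RPKM, which adds AKAP14, and 0 at a floor of 5 RPKM, which leaves out RAPGEF4 and PDE9A. The count of 4 called pathway genes was 10 at an unadjusted p under 0.05, an alternative chosen after seeing the data. The median log2 ratio of the set stayed between 0.01 and 0.03 under 7 alternatives of floor, pseudocount and scaling. Scaling subtracted -0.00 (median) or 0.01 (upper quartile) from all log2 ratios, and turned the sign of 2 genes with log2 ratios of at most 0.01 in size under upper quartile scaling. A pseudocount of 1 RPKM moved 12 of 59 log2 ratios by 0.05 or more and turned none; that of RAPGEF4 became -0.81 and that of PDE9A -0.64. No paired analysis was possible because the table holds 1 value per stripe; for the same reason no library was left out in turn.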

Other observations

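Further genes of cyclic AMP signalling stood out by their values and were chosen after these were seen. The peptides VIP and PACAP act through receptors coupled to the stimulatory G protein. VIP, which encodes vasoactive intestinal peptide and lay below a mean of 1 RPKM, had 1.24 RPKM in black-labelled skin and 0.11 RPKM in yellow-labelled skin, with p = 0.0244 and q = 1 in the authors' deposited table. ADCYAP1, which encodes PACAP, reached a mean of 1 RPKM through black-labelled skin. It had 1.51 RPKM in black-labelled skin and 0.94 RPKM in yellow-labelled skin, with p = 0.0764 in the authors' deposited table. Its receptor ADCYAP1R1 had 2.41 RPKM in black-labelled skin and 1.61 RPKM in yellow-labelled skin, with p = 0.107 in the authors' deposited table. VIPR2, described above, was also higher in black-labelled skin, while VIPR1 had 2.30 RPKM in black-labelled skin and 2.30 RPKM in yellow-labelled skin. None of these 5 genes was called. DRD1, a dopamine receptor, had the highest ratio of the measured receptors and reached a mean of 1 RPKM through black-labelled skin, with 2.72 RPKM in black-labelled skin and 0.99 RPKM in yellow-labelled skin, and p = 0.288 in the authors' deposited table.

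In Coturnix japonica 2.1, 8 genes of the set overlap another protein-coding gene of the table. Beside PDE1A and DNAJC10, the partners above 1 RPKM were METTL21A for CREB1 (7.80 RPKM in black-labelled skin and 6.51 RPKM in yellow-labelled skin), TTLL7 for PRKACB (4.51 RPKM in black-labelled skin and 4.86 RPKM in yellow-labelled skin), GNAT1 for GNAI2 (4.47 RPKM in black-labelled skin and 4.20 RPKM in yellow-labelled skin) and COMP for CRTC1 (2.58 RPKM in black-labelled skin and 2.45 RPKM in yellow-labelled skin).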
